A study of Mus musculus with 20 samples.

Results

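Vascular smooth muscle cells of the interscapular brown fat (iBAT) of mice were described from single-cell RNA-seq libraries of the lineage marker negative (Lin-) stromal fraction. A cell was taken as a smooth muscle cell when its counts of Acta2, Myh11 and Lmod1 summed to at least 5 with at least 1 count of Myh11, when Kcnj8, Higd1b and Abcc9, markers of pericytes, summed to under 2, and when Pecam1, Cdh5, Pdgfra and Ptprc, markers of endothelial, adipose stromal and immune cells, summed to under 1. Cells also had to have under 10% mitochondrial counts, a total under 15000 and at least 500 detected genes. The rule found 1540 smooth muscle cells among 60538 kept cells of 10 Lin- libraries, which held 89637 barcodes. All 20 libraries of the study, which include the lineage marker positive (Lin+) immune fraction, held 156759 barcodes.

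The study compared mice kept at room temperature (RT) with mice exposed to 6 °C for 4 days (COLD) and, in a wild-type strain, with mice infused with the beta3-adrenergic agonist CL316,243 at 0.75 nmol per hour for 4 days (CL). Male C57BL/6J mice gave 2 Lin- libraries each for RT, COLD and CL. Female mice of an Adrb1 line gave 1 Lin- library each at RT and COLD for the genotype Adrb1 fl/fl; Pdgfra-CreER -/- (WT) and for Adrb1 fl/fl; Pdgfra-CreER +/- (KO), and tamoxifen was given to both genotypes. Mice were 8 to 14 weeks old, and each library pooled tissue of 3 to 4 mice. The Cre driver acts in cells that express Pdgfra, and smooth muscle cells were required here to have under 1 count of Pdgfra. In the Adrb1 line the RT libraries were made with the v3 kit and the COLD libraries with the v2 kit, so kit and temperature cannot be told apart within that line.

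Vascular smooth muscle cells wrap arteries, arterioles and larger veins and set vessel diameter by contracting. Calcium entry and release from internal stores activate myosin light chain kinase, and nitric oxide acting through cyclic GMP relaxes the cells. In brown adipose tissue sympathetic nerves act on vessels as well as on adipocytes, and blood flow through the tissue rises during thermogenesis. Pericytes are the related mural cells of capillaries and carry less contractile protein.

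The promoters of 7 genes are shown because the results below turn on these genes. Each window runs from 250 bases before to 50 bases into the transcript, from RefSeq on GRCm38.p6, 5′ to 3′ on the gene's own strand. Isg15, Ifit1, Ifit3 and Bst2 are interferon response genes that were higher after cold, and capitals mark the interferon response element searched on both strands as GAAANNGAAA (TTTCNNTTTC on the other strand, overlapping matches kept). Rergl, Trpv1 and Myl9 are genes that set these cells apart from their neighbours, and capitals mark the CArG box, the binding motif of serum response factor, searched on both strands.
Isg15, chr4:156200769-156201068, minus strand: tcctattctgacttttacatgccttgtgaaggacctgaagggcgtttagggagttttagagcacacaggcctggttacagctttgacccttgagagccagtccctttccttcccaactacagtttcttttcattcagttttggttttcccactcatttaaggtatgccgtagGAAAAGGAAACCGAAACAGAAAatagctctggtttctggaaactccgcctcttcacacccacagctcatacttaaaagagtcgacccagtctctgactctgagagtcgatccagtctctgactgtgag
Ifit1, chr19:34640639-34640938, plus strand: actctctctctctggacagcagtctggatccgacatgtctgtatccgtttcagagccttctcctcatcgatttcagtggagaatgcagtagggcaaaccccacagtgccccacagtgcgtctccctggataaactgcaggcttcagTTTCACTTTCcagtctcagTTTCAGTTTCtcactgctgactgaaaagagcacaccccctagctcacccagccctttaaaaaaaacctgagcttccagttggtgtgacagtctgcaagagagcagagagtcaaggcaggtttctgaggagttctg
Ifit3, chr19:34583279-34583578, plus strand: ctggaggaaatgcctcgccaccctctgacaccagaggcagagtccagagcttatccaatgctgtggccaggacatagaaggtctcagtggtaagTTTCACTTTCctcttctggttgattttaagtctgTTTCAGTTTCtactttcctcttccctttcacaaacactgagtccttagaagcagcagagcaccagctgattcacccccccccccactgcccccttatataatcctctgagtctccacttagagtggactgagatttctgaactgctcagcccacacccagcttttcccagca
Bst2, chr8:71537423-71537722, minus strand: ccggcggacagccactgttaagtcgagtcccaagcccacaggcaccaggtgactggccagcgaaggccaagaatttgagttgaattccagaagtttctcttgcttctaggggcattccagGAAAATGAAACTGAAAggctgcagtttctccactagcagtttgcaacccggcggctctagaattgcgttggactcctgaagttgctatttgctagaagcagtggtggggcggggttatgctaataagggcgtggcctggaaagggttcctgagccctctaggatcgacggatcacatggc
Rergl, chr6:139501860-139502159, minus strand: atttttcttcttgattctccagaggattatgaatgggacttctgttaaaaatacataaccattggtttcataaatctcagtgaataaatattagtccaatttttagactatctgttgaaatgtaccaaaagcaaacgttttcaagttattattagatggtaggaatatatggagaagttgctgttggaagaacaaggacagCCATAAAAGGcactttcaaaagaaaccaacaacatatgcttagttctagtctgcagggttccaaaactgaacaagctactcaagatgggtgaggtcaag
Trpv1, chr11:73233899-73234198, plus strand: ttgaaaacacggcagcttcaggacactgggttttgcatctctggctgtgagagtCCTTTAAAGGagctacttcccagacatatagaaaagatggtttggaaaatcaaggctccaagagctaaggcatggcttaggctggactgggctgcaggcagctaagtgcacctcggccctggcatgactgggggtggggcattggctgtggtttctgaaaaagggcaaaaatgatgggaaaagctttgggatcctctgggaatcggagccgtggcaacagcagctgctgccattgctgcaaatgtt
Myl9, chr2:156775214-156775513, plus strand: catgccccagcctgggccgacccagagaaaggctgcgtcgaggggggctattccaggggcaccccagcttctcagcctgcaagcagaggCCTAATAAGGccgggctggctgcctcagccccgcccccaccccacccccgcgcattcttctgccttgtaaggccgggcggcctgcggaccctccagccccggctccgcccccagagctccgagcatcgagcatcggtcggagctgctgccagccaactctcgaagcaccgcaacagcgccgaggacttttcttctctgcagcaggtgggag
The interferon response element was found in at least 1 promoter of 3.99% of 27025 genes, and in 10 of the 19 genes of the interferon list that had a promoter in the table. The CArG box was found in 1.81% of those genes. Of the 20 genes outside the gate most selective for the chosen cells, 17 had a promoter in the table. The box was found in 4 of these 17 (Asb2, Fbxl22, Myl9 and Rergl). Krt14, carried by the keratin-positive cells described below, was among the 17 and had no match. The CArG box was in neither of the gate genes Acta2 and Lmod1 that had a window. A match is a description of these letters, and no match says only that they are not in this window.

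Per library, 60 (KO RT) to 272 (C57 COLD replicate 1) smooth muscle cells were found, and their summed counts ran from 122565 in C57 CL replicate 1 to 647687 in WT RT. The median count per smooth muscle cell was lowest in C57 CL replicate 1 (1048) and C57 RT replicate 2 (1301), and highest in C57 RT replicate 1 (3820). No barcode was shared among smooth muscle cells in any of the 45 pairs of libraries. Mitochondrial counts stood at a median of 0% of smooth muscle cell counts in C57 RT replicate 2, 0.00558% in C57 CL replicate 1 and 0.0187% in C57 COLD replicate 2, against 0.732% to 5.12% in the other libraries. Replicate libraries of C57 mice differed beyond sampling noise: chi-square divided by its degrees of freedom was 11.8 at RT, 4.85 after cold and 4.24 after CL, values that also depend on depth and on the genes counted.

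At the lower edge of the rule, 44 smooth muscle cells had 5 to 10 summed contractile counts. Just outside it, 14 otherwise eligible cells had 3 to 5, and 547 had at least 5 but under 1 count of Myh11. Another 151 were left out by their pericyte marker counts and 331 by counts of the other excluded markers. Counts were corrected by the authors and can be fractions. Cells said below to lack Myh11, or to be without it, had a corrected count under 1. The cells without Myh11 were unevenly spread: 17, 29, 12 and 6 in the RT libraries (C57, C57, WT, KO), 85, 44, 97 and 55 in the matching COLD libraries, and 178 and 24 in C57 CL replicates 1 and 2. The part of the correction in this spread was not tested. The label was checked against its markers. The gate genes Acta2, a smooth muscle actin, Myh11, the smooth muscle myosin heavy chain, and Lmod1, an actin filament nucleator, averaged 18584 ± 3593, 4858 ± 1102 and 1587 ± 397 CPM (SD, n = 10 libraries), as the rule fixed. The other markers, Tagln (transgelin) at 11564 ± 1720 CPM and Pln (phospholamban) at 453 ± 168 CPM, were present in the smooth muscle cells of all 10 libraries. CPM scales counts of molecules, tagged at their 3′ end, to the total of the class in a library, so levels were not divided by gene length.

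A part of the cells in the Adrb1 line went against the label. Mice of that line were female and the C57 mice male, so line and sex cannot be told apart here. The paper describes a small cluster resembling mammary luminal cells in all of its female Lin- libraries and not in the male ones. Krt5, Krt14 or Krt17, keratins of basal and myoepithelial cells, had a count in 42 of 150 smooth muscle cells (28.0%) of WT COLD and 21 of 66 (31.8%) of KO COLD, against 3 of 193 (1.55%) in WT RT, 4 of 60 (6.67%) in KO RT and 0 in the 6 C57 libraries. These 70 cells made up 4.55% of all smooth muscle cells, while 0 of 1796 pericytes, 1 of 5116 endothelial cells and 2 of 13498 Pdgfra stromal cells held a keratin count. Krt14 reached 1111 CPM in WT COLD and 986 CPM in KO COLD, and Oxtr, the oxytocin receptor, 249 and 345 CPM. At least 5 summed counts of adipose stromal genes were held by 71 smooth muscle cells, and at least 2 of endothelial, immune or erythroid genes by 33, 6 and 4. With the keratin-positive cells these made up 171 cells, and 1369 met none of these limits. Pericyte and adipocyte genes were not part of this count. Main counts of called genes that rest on the COLD libraries of the Adrb1 line are given with and without the keratin-positive cells. Counts by list and under the other alternatives include these cells unless stated.

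**Figure D1:**
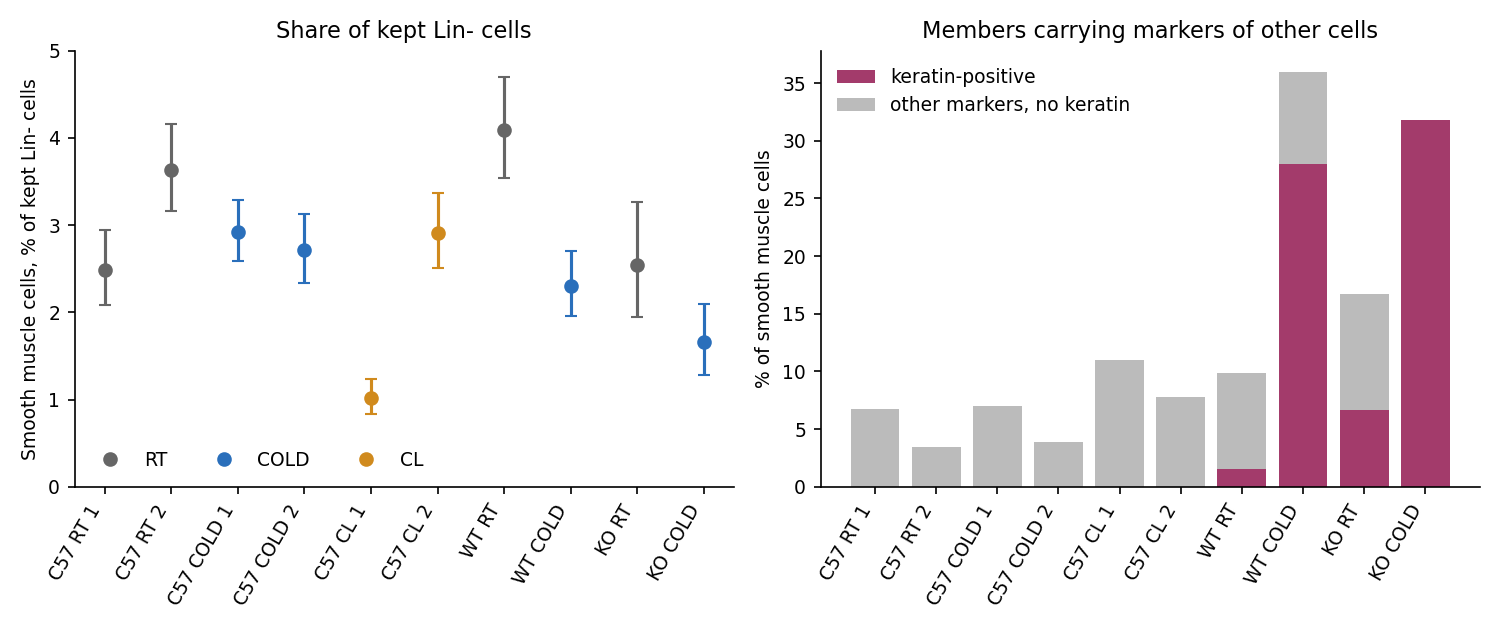
Left, smooth muscle cells as a percentage of kept Lin- cells in each of 10 libraries, with exact 95% binomial intervals for counting error. Right, the percentage of smooth muscle cells per library that held keratin counts (purple) or markers of other cell types without keratin (grey). Keratin-positive cells reached 28.0% and 31.8% in the WT and KO COLD libraries and were 0 in the C57 libraries.

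The share of smooth muscle cells among kept Lin- cells was 2.49% and 3.64% in C57 RT, 2.92% and 2.71% in C57 COLD, and 1.02% and 2.91% in C57 CL. In the Adrb1 line it was 4.09% (WT RT), 2.31% (WT COLD), 2.54% (KO RT) and 1.65% (KO COLD). The C57 COLD values lay between the RT values, and C57 CL replicate 1 had the lowest share of the 10 libraries. The difference of COLD from RT was -0.24 percentage points in C57 mice (2.82% ± 0.15 against 3.06% ± 0.81, n = 2 each, two-sided exact permutation p = 1). For CL it was -1.10 percentage points (1.97% ± 1.34, n = 2, exact permutation p = 0.667), and 0.333 is the smallest p that 2 against 2 allows. Over 4 COLD and 4 RT libraries the difference was -0.79 percentage points (2.40% ± 0.56 against 3.19% ± 0.80, exact permutation p = 0.2), and without keratin-positive cells it was -1.02 (exact permutation p = 0.171). Shares also move with every other cell type recovered: as a share of smooth muscle cells, pericytes and endothelial cells together, all 3 differences turned positive, at 7.02 (exact permutation p = 0.333), 7.24 (p = 1) and 3.29 percentage points (p = 0.571). With the cells that lack Myh11 but meet the rest of the rule added, the COLD difference was 0.124 percentage points in C57 mice (exact permutation p = 1) and -0.0173 over 8 libraries (3.51% ± 0.38 against 3.53% ± 0.84, exact permutation p = 1), and the CL difference was -0.414 (exact permutation p = 1). Without C57 RT replicate 2 the C57 COLD difference was 0.331, and without C57 CL replicate 1 the CL difference was -0.148.

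Because smooth muscle cells were chosen by contractile counts, their levels against other cells are a description without a test. Among genes outside the gate with at least 200 CPM, the ratio to all other kept Lin- cells was highest for Pln, which restrains the calcium pump of the sarcoplasmic reticulum, at 453 CPM and a ratio of 270. Krt14, carried by the keratin-positive cells, ranked after it. Rergl, a Ras-like small GTPase, followed with 315 ± 270 CPM and a ratio of 181, then Cnn1 (calponin, an actin-binding regulator of contraction) with 664 ± 386 CPM and 138, and P2rx1, the ATP-gated channel of the sympathetic co-transmitter, with 459 ± 130 CPM and 107. Tagln had a ratio of 89.1. Rgs7bp (96.1), Nrip2 (88.2) and Pcp4l1 (81.4) had ratios of the same order and are in neither the contractile nor the calcium list. Pln averaged 0.787 CPM and P2rx1 3.39 CPM in pericytes, whereas Tagln averaged 475 CPM there.

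Among all 9553 genes outside the gate with a mean of at least 10 CPM over smooth muscle cells and pericytes, 934 (9.78%) were higher in smooth muscle cells than in pericytes of the same library in all 10 libraries, and 12.1% in none. Of 30 contractile genes at this level, 25 were higher in all 10. Myocd, the transcriptional co-activator of the smooth muscle programme, averaged 59.3 ± 26.9 CPM in smooth muscle cells and 0.57 CPM in pericytes. Mylk, the myosin light chain kinase, averaged 3005 ± 638 CPM against 216 CPM, Myl9, a regulatory myosin light chain, 9585 ± 2431 CPM against 927 CPM, and Smtn (smoothelin) 216 ± 70.6 CPM against 69.9 CPM. Of 28 genes of calcium handling and ion channels, 19 were higher in all 10 libraries. Ryr2, the calcium release channel best known from heart, was counted in smooth muscle cells of every library (40.4 ± 11 CPM) and in no pericyte or endothelial cell. Itpr1, the inositol trisphosphate receptor, averaged 326 ± 122 CPM against 67.7 CPM, Cacna1c, the L-type calcium channel, 128 ± 47.7 CPM against 47.3 CPM, Kcna5, a voltage-gated potassium channel, 251 ± 81.5 CPM against 14.3 CPM, and Kcnmb1, the smooth muscle subunit of the large-conductance potassium channel, 83.9 ± 29.4 CPM against 3.21 CPM. Of 26 oxidative phosphorylation genes, 22 were higher than in pericytes in all 10 libraries.

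Of 35 genes of the vessel wall matrix at the same level, 7 were above pericytes in all 10 libraries and 14 in none, again beside 9.78% and 12.1% of all genes. Of 22 genes linked to phenotypic modulation, the switch of smooth muscle towards a matrix-producing state, 3 were above in all 10 and 8 in none: Mgp (matrix Gla protein) averaged 69.2 ± 85.1 CPM against 5269 CPM in pericytes, and Lum (lumican) 46.5 ± 34.6 CPM against 698 CPM. Eln (elastin) averaged 245 ± 96.4 CPM and was above pericytes in 6 of 10 libraries. Of 38 genes of Notch and mural growth factor signalling, 13 were above in all 10, among them Notch3 (887 ± 142 CPM against 460 CPM) and its ligand Jag1 (203 ± 45.1 CPM against 95 CPM). Mki67, a marker of cycling cells, had a count in 10 of 1540 smooth muscle cells (0.649%), against 1.06% of pericytes and 6.73% of Pdgfra stromal cells. Thinned to 1000 counts a cell, with the classes called again on the thinned counts, the shares were 0.337%, 0.527% and 1.51%.

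**Figure D2:**
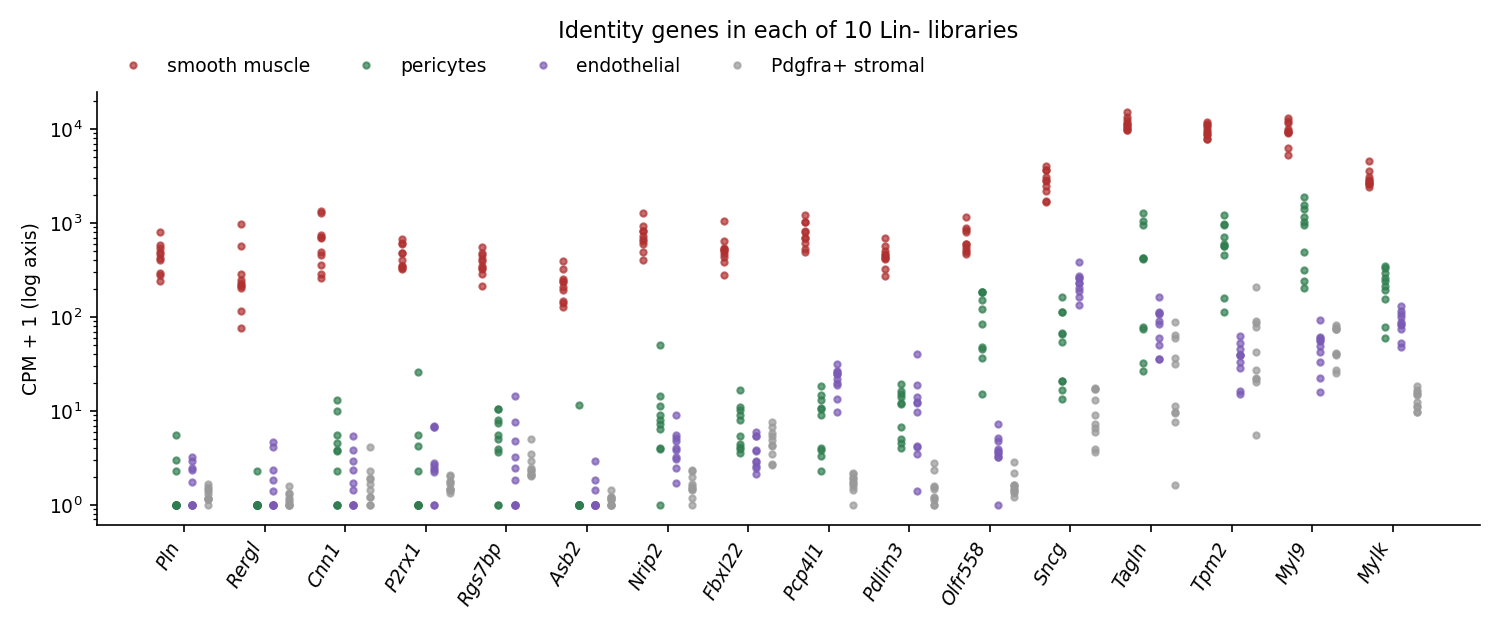
Levels of 16 of the most selective genes outside the gate in smooth muscle cells, pericytes, endothelial cells and Pdgfra stromal cells of the 10 Lin- libraries (1 point per class and library, CPM + 1 on a log axis). For Pln, Rergl and Cnn1 the points of smooth muscle cells sit far above every other class, whereas Tagln, Tpm2 and Myl9 are also counted in pericytes.

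Receptors for nerve signals and hormones divided between the mural cell types. Npy1r, a receptor of the sympathetic co-transmitter neuropeptide Y, averaged 159 ± 31.6 CPM in smooth muscle cells and 7.93 CPM in pericytes. Ptger3, a prostaglandin E2 receptor, averaged 155 ± 36.2 CPM against 8.10 CPM, and Ramp1, the co-receptor for calcitonin gene-related peptide, 338 ± 122 CPM against 12.3 CPM. Htr1b, a serotonin receptor, was lower, at 17.5 ± 7.79 CPM, but above pericytes in all 10 libraries. The pattern was the opposite for Agtr1a, an angiotensin II receptor, with 46.9 ± 9.97 CPM in smooth muscle cells and 538 ± 291 CPM in pericytes, and for Ednrb, an endothelin receptor, with 66.8 CPM against 320 CPM. Gucy1a1, a subunit of the nitric oxide receptor guanylate cyclase, was the most abundant of the named receptor genes (684 ± 251 CPM) and was above pericytes in all 10 libraries. Of 30 genes of vasoactive receptors and cyclic nucleotide signalling with a mean of at least 10 CPM over both classes, 11 were above pericytes in all 10 libraries and 7 in none, beside 9.78% and 12.1% of all genes at this level.

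Trpv1, the heat- and capsaicin-gated cation channel known from sensory neurons, had a count in 177 of 1540 smooth muscle cells (11.5%, exact 95% interval 9.94% to 13.2%). It had a count in 1 of 1796 pericytes, 2 of 5116 endothelial cells (0.0391%) and 14 of 13498 Pdgfra stromal cells (0.104%). With each cell thinned to 1000 counts, shallower cells left out and the classes called again on the thinned counts, it was seen in 71 of 1485 smooth muscle cells (4.78%), 1 of 1139 pericytes and 4 of 9354 Pdgfra stromal cells. Its level was 56.7 and 40.6 CPM in C57 RT, 60.9 and 73.1 CPM in C57 COLD, 24.4 and 58.1 CPM in C57 CL, 17.0 CPM in WT RT, 44.3 CPM in WT COLD, 29.8 CPM in KO RT and 42.6 CPM in KO COLD. It was thus counted in every library. Within each line every COLD library was above every RT library, while the libraries of both lines overlapped, and the change over 8 libraries did not pass (log2 change 0.58, SE 0.27, adjusted p = 0.331, edgeR's quasi-likelihood test).

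Among adrenoceptors, the alpha1 genes that mediate constriction by noradrenaline marked smooth muscle cells. Adra1a had a count in 116 cells (7.53%) against 0.278% of pericytes and 0.482% of Pdgfra stromal cells, and Adra1b in 122 cells (7.92%) against 0.223% and 2.84%. Adra1d was counted in 1 cell and Adra2b in 38 (2.47%, against 1.61% of pericytes). Adrb1, the beta1 receptor deleted in the KO mice, had a count in 83 cells (5.39%), fewer than the 353 of 1796 pericytes (19.7%) and more than the 0.293% of endothelial cells. Thinned to 1000 counts the shares were 1.75% and 12.3%. Adrb3, the target of CL316,243, was counted in 7 smooth muscle cells (0.455%). The shares were 0.167% of pericytes, 0.704% of endothelial cells and 0.578% of Pdgfra stromal cells. Of those 7 smooth muscle cells, 3 came from C57 COLD replicate 1, 2 from C57 COLD replicate 2, and 1 each from C57 CL replicate 2 and WT COLD. Each RT library had 0. These intervals and shares cover counting error only, and counts from free RNA were reduced by the authors' correction.

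**Figure D3:**
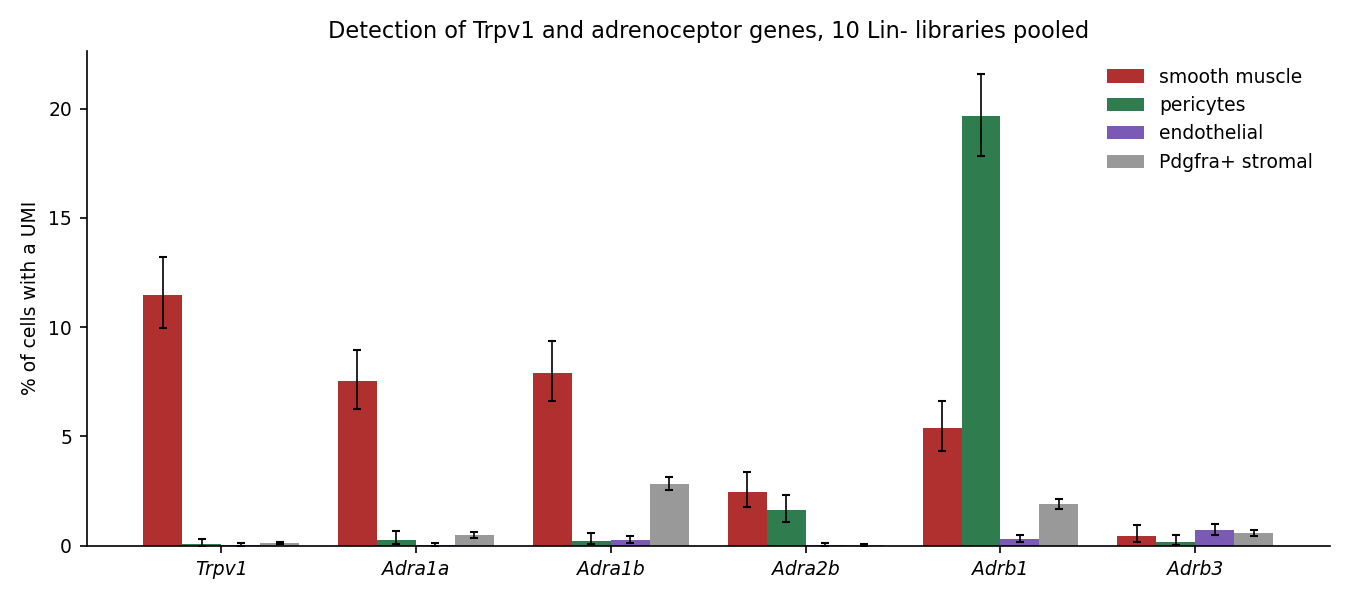
Percentage of cells whose corrected count rounded to at least 1, for Trpv1 and 5 adrenoceptor genes. Classes are smooth muscle cells (n = 1540), pericytes (1796), endothelial cells (5116) and Pdgfra stromal cells (13498), all 10 Lin- libraries pooled, with exact 95% binomial intervals. Trpv1, Adra1a and Adra1b are highest in smooth muscle cells, whereas Adrb1 is highest in pericytes (19.7%).

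Smooth muscle cells varied among themselves, and part of that variation followed the library. Clustering without the gate genes gave 10 groups of 47 to 296 cells, described here without a test. A group of 296 cells was led by Nr4a2 (529 CPM against 148 CPM in the other smooth muscle cells), mt-Nd2 of the mitochondrial genome and AY036118, and it also had more Lars2 (210.3 CPM against 79.0 CPM) and more of the immediate early gene Egr1 (2411 CPM against 1088 CPM). From C57 RT replicate 1 came 77 of its cells, 60 from C57 CL replicate 2, and 118 and 31 from WT RT and KO RT, the libraries of the v3 kit. A group of 245 cells was led by Klf2 (2689 CPM against 1029 CPM), a flow-responsive transcription factor, followed by Cracr2b, Bcr and Cck, and 217 of its cells came from the 4 COLD libraries, 23 from the CL libraries and 5 from the 4 RT libraries. The group of 296 held 227 cells of RT libraries and 6 of COLD libraries. A group of 220 cells, spread over all 10 libraries, had high Rgs5 (5977 CPM against 300 CPM) and Higd1b (257 CPM against 54.2 CPM), genes shared with pericytes. Almost all cells of a group of 139 (134) came from C57 RT replicate 2, which has few counts per cell, and it was led by Sfrp5, from counts in 1.44% of its cells, and by Rergl.

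A group of 163 cells had more Smtn (851 CPM against 134 CPM) and Eln (855 CPM against 169 CPM), and its high mast cell genes Tpsb2 and Cma1 came from 0.613% and 5.52% of its cells. A group of 89 cells, found in every library, was led by Actc1, the cardiac actin (1098 CPM against 2.25 CPM, counted in 65.2% of the group and 0.207% of the others), and also had more of the collectin gene Colec11 (674 CPM against 2.24 CPM) and of Actg2, an actin of visceral smooth muscle (3517 CPM against 130 CPM). A group of 203 cells from all 10 libraries had more of 4631405J19Rik (177 CPM against 66.1 CPM), Chchd10 (621 CPM against 317 CPM), a mitochondrial protein gene, Kcna5 (437 CPM against 240.01 CPM) and Cox6a1 of cytochrome c oxidase (1305 CPM against 767 CPM). The last 3 groups held cells with markers of other types: 69 with keratins, 69 with Dcn and Pi16 of adipose stromal cells, and 47 with endothelial Cldn5 and with haemoglobin counts in 4.26% of cells.

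Whether cold changed these cells was asked first over all 4 RT and 4 COLD libraries, with the line (C57 or Adrb1 line) as a term. Each library's cells were summed, so the groups described above, in which RT and COLD cells are unevenly spread, were not compared separately. Of 7704 genes tested, 50 were higher (0.649%) and 18 lower (0.234%) after cold at an adjusted p under 0.05 (edgeR's quasi-likelihood test, Benjamini-Hochberg). Interferon response genes stood out: 10 of the 18 measured rose, 0 fell, and in 11 every COLD library was above every RT library, which held for 3.66% of all genes tested. The median change of the 18 was 1.96 on the log2 scale, beside 0.00228 over all genes. The list was chosen with earlier results of these data known, so its counts are not independent of them. The summed level of the list was 442, 614, 413 and 294 CPM in C57 RT replicates 1 and 2, WT RT and KO RT, and 2037, 1392, 1022 and 1728 CPM in the matching COLD libraries, so the groups did not overlap.

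Ifit1, which binds viral RNA without a self cap, stood at 3.35 and 22.1 CPM in C57 RT, 7.63 in WT RT and 0 in KO RT, and at 159 and 103 CPM in C57 COLD, 37.6 in WT COLD and 92.5 in KO COLD. Every COLD library was above every RT library, with a log2 change of 3.56 (SE 0.46, adjusted p = 0.00714). Bst2, or tetherin, which holds budding viruses at the cell surface, was at 41.9, 43.1, 38.6 and 39.8 CPM at RT and 181, 108, 171 and 137 CPM after cold (log2 change 1.83, SE 0.22, adjusted p = 0.00522). The 4 RT values of Bst2 lay within 5 CPM of each other. Irf7, the transcription factor that amplifies the interferon response, went from 5.04, 7.90, 6.13 and 12.6 CPM to 118, 43.0, 29.8 and 34.3 CPM (log2 change 2.88, SE 0.49, adjusted p = 0.0231). Ifi27l2a rose likewise (log2 change 2.67, adjusted p = 0.00367). In the group of cells with Dcn and Pi16 it was at 1024 CPM, against 19.8 CPM in the other smooth muscle cells. Usp18, a brake on interferon signalling (log2 change 2.66, adjusted p = 0.0350), Rtp4 (2.08, adjusted p = 0.0237), Lgals3bp (2.02, adjusted p = 0.0237) and Xaf1 (1.90, adjusted p = 0.0237) also rose.

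Isg15, a ubiquitin-like modifier, was at 128, 91.6, 57.7 and 36.9 CPM at RT and at 385, 300, 124 and 406 CPM after cold. It rose by the test (log2 change 1.88, SE 0.36, adjusted p = 0.0350), but WT COLD lay just under C57 RT replicate 1. Ifit3 also passed with overlapping libraries (log2 change 3.05, adjusted p = 0.0237). Stat2 (log2 change -0.20, adjusted p = 0.765) and Irf9 (0.54, adjusted p = 0.399), transcription factors that act together after interferon, did not pass. Of the 10 interferon genes that rose, 7 had a promoter in the table, and the element GAAANNGAAA was in 4 of them, shown above.

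Chemokine genes and genes of other cell types were also among those that rose. Cxcl9, an interferon-induced chemokine, was at 2.58 to 8.21 CPM in the RT libraries and 22.6 to 59.2 CPM after cold (log2 change 3.08, SE 0.49, adjusted p = 0.0231). Plac8 was at 3.23 to 4.96 CPM and 20.01 to 83.04 CPM (log2 change 3.59, SE 0.56, adjusted p = 0.0231). Nnat, the imprinted gene of differentiating fat cells, was at 0 to 2.62 CPM and 8.38 to 83.7 CPM (log2 change 4.73, SE 0.73, adjusted p = 0.0231). Adipoq, a brown adipocyte marker, was called as well. The summed brown adipocyte markers stood at 4881 to 6253 CPM at RT and 5322 to 9110 CPM after cold. The 3 of these markers tested over 8 libraries had a median log2 change of 0.38. In C57 mice alone 6 were tested, and 4 were higher in both COLD libraries, beside 17.6% of all genes tested. Their median there was 3.38, and the part of these markers in the results was not tested. Sdf2l1, of protein folding in the endoplasmic reticulum, rose by 2.86 (SE 0.53, adjusted p = 0.0302). The genes called higher also included Krt8, Krt14, Krt17, Lgals7, Trim29 and Oxtr, which move with the keratin-positive cells.

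Of the genes that fell, Rergl was the most selective for smooth muscle. It was at 571 and 985 CPM in C57 RT, 286 in WT RT and 212 in KO RT, and at 219 and 204 CPM in C57 COLD, 114 in WT COLD and 76.1 in KO COLD. It fell by 1.66 on the log2 scale (SE 0.24, adjusted p = 0.0188), and within each line every COLD library was below every RT library, although KO RT lay below C57 COLD replicate 1 when CPM were compared across lines. Nr4a2, a nuclear receptor of the immediate early class, fell from 535, 325, 362 and 317 CPM to 221, 128, 78.3 and 64.2 CPM (log2 change -1.81, SE 0.33, adjusted p = 0.0256). Hopx, a transcriptional co-regulator, fell from 191, 144, 152 and 152 CPM to 33.04, 80.6, 25.9 and 54.7 CPM (log2 change -1.81, SE 0.32, adjusted p = 0.0237). In both, every COLD library was below every RT library. Efnb2, the ephrin of arterial vessels, fell from 38.3 to 50.7 CPM at RT to 4.21 to 21.1 CPM (log2 change -1.54, SE 0.32, adjusted p = 0.0469).

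Further genes named by the same rule fell: Rad51ap2 (log2 change -2.05, adjusted p = 0.0363), Actr3b (-1.74, adjusted p = 0.0414), Atcayos (-1.47, adjusted p = 0.0231), Leng8 (-1.42, adjusted p = 0.0231) and Dip2c (-1.36, adjusted p = 0.0355). Lars2, the mitochondrial leucyl-tRNA synthetase, was at 441 and 504 CPM in WT RT and KO RT, the libraries of the v3 kit, and at 7.84 to 38.6 CPM in the 8 others. Its log2 change of -3.00 (adjusted p = 0.0414) thus moves with the kit version.

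**Figure D4:**
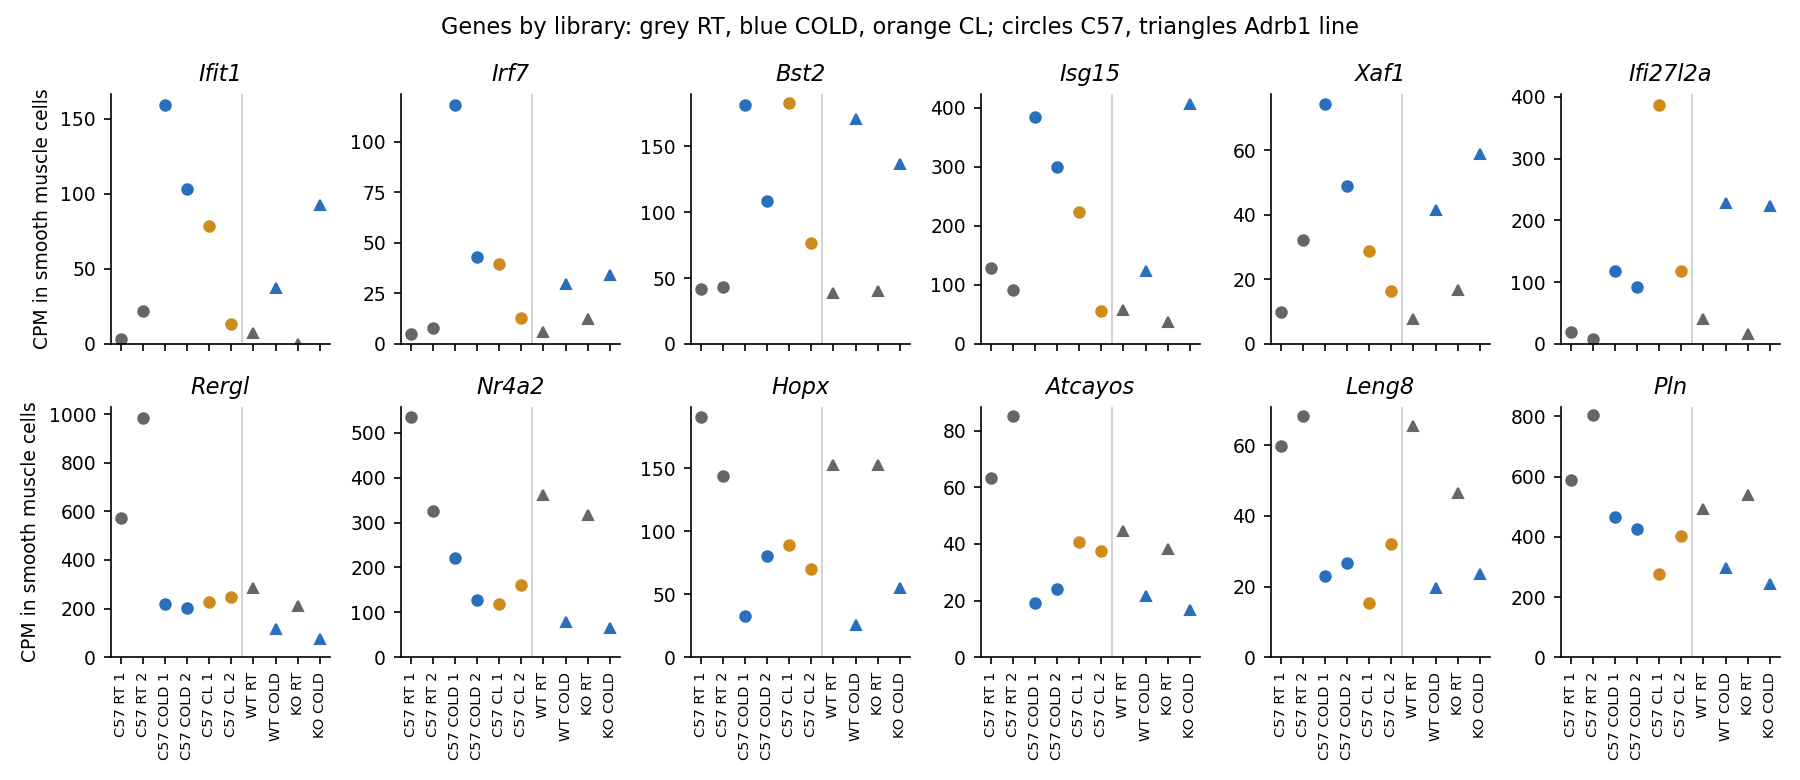
Levels (CPM) of 6 interferon response genes and 6 genes with lower values after cold, of which Pln did not pass the test, in smooth muscle cells, 1 point per library (grey RT, blue COLD, orange CL; circles C57, triangles Adrb1 line). Bst2 lies at 38.6 to 43.1 CPM in all RT libraries and at 108 to 181 CPM after cold, and CL replicate 1 of C57 sits with the COLD libraries whereas CL replicate 2 lies lower.

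The genes of contraction showed no call, beside 0.649% of all genes tested called higher and 0.234% lower. Of 30 contractile genes, 0 passed in either direction, with a median log2 change of 0.15. The rule had left out cells with few contractile counts or under 1 count of Myh11. Those without Myh11 were more numerous in each COLD library than in its matching RT library. The test therefore cannot show whether contractile genes changed in such cells. Of 27 genes of calcium handling and ion channels 0 passed, the median was -0.41, and in 6 every COLD library was below every RT library, which held for 4.32% of all genes tested. Pln was at 588, 804, 493 and 539 CPM at RT and 466, 426, 296 and 242 CPM after cold, without overlap, and did not pass (log2 change -0.82, adjusted p = 0.153). Kcnmb1 was at 67.1, 80.0, 54.0 and 50.9 CPM against 99.61, 131, 112 and 119 CPM, also without overlap (log2 change 0.83, adjusted p = 0.0701). Of 23 vasoactive genes 0 passed: Gucy1a1 had a log2 change of -0.96 and Prkg1, the cyclic GMP-dependent kinase, one of -0.89 (adjusted p = 0.0848). Of 20 genes of phenotypic modulation 1 rose, the chemokine Ccl2 (log2 change 4.43, adjusted p = 0.0231), with 0 CPM in KO COLD and in both RT libraries of the Adrb1 line. In the group of cells with Dcn and Pi16 of adipose stromal cells, Ccl2 was at 522 CPM, against 9.92 CPM in the other smooth muscle cells. Of 33 matrix genes, 35 Notch pathway genes, 25 oxidative phosphorylation genes and 11 sterol synthesis genes 0 passed. Of 12 antigen presentation genes 1 rose (H2-T23). In lists of this size, 0 calls lie near the 0.649% and 0.234% of all genes called higher and lower. Of 22 immediate early genes 1 fell (Nr4a2). Their median log2 change was -0.32, and 1 of the 22 was above 0, beside 3869 of all 7704 genes. In C57 mice alone 8 of 22 were above 0. Their summed level was 27344 and 9182 CPM in C57 RT and 21933 and 16863 CPM in C57 COLD. In the Adrb1 line, where kit and temperature change together, it was 28224 (WT) and 25102 CPM (KO) at RT and 17418 and 18648 CPM after cold. Over the 8 libraries 1162 genes had an unadjusted p under 0.05 by edgeR's quasi-likelihood test, and DESeq2 called 51.

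These counts depended on which cells and libraries entered. Without keratin-positive cells 23 genes were called, all among the 68, and they included 9 of the 10 interferon genes, while Ifi27l2a had an adjusted p of 0.0613. Of the falls named above, Rergl, Atcayos and Leng8 passed without these cells, whereas Nr4a2 (log2 change -1.70, adjusted p = 0.0504), Hopx (-1.63, adjusted p = 0.0593), Efnb2 (-1.44, adjusted p = 0.0717), Rad51ap2 (-1.94, adjusted p = 0.0782), Actr3b (-1.60, adjusted p = 0.0946), Dip2c (-1.20, adjusted p = 0.0651) and Lars2 (-2.73, adjusted p = 0.0633) did not. Among the rises, Cxcl9 (3.20, adjusted p = 0.0593), Sdf2l1 (2.93, adjusted p = 0.0585) and H2-T23 (1.21, adjusted p = 0.309) did not pass either, and Plac8 and Adipoq were filtered out. Without any cell carrying other markers 0 were called, with Ifit1 at a log2 change of 3.59 (adjusted p = 0.0582). In that fit Ifi27l2a was at 2.04 (adjusted p = 0.112, edgeR's quasi-likelihood test) and Ccl2 was filtered out. Leaving out 1 library gave 4 calls without WT RT, 21 without WT COLD, 26 without KO COLD, 42 without KO RT, 110 without C57 RT replicate 1 and 260 without C57 RT replicate 2. Ifit1 passed in each of those fits. The change with cold did not pass as different between the C57 mice and the Adrb1 line for any of 8375 genes (0 called, 830 at an unadjusted p under 0.05), nor for any of 7847 without keratin-positive cells (607 unadjusted), and kit version enters that comparison.

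Within C57 mice alone, with 2 libraries a group, 0 of 8001 genes passed (0%, edgeR's quasi-likelihood test, with 427 at an unadjusted p under 0.05, and 0 by DESeq2). These RT and COLD libraries are also part of the comparison above. Of 22 interferon genes, 20 were higher in both COLD libraries than in both RT libraries, which held for 17.6% of all genes tested, with a median log2 change of 1.98 beside 0.00542. Ifit1 (log2 change 3.77, SE 0.63, adjusted p = 0.18), Ifit3 (3.08, SE 0.52, adjusted p = 0.18), Ccl2 (3.87, SE 0.56, adjusted p = 0.137) and the microfibril gene Mfap5 (2.61, SE 0.33, adjusted p = 0.0782) had among the smallest p-values. Of 12 sterol synthesis genes, 9 were lower in both COLD libraries, which held for 17.5% of all genes, with a median of -0.87, and the summed level was 625 and 646 CPM at RT against 406 and 390 CPM. In the Adrb1 line the sum was 400.1 CPM in WT RT and 375 CPM in WT COLD, and 354 CPM in KO RT and 509 CPM in KO COLD. Over all 8 libraries 0 of 11 of these genes had every COLD library below every RT library, and their median was -0.38. Without C57 RT replicate 1, 141 genes were called, without C57 COLD replicate 1 there were 5, without C57 CL replicate 1 there were 3 and without C57 COLD replicate 2 there was 1.

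The response to CL infusion was asked in the same C57 fit and shares the RT libraries with the cold comparison. Of 8001 genes 2 were called (0.025%), both higher, with 362 at an unadjusted p under 0.05 and 6 called by DESeq2. Mfap5, a microfibril-associated glycoprotein, was at 19.2 and 22.6 CPM at RT and 249 and 236 CPM after CL (log2 change 3.66, SE 0.33, adjusted p = 0.00286). The complement gene C3 was at 14.5 and 16.2 CPM at RT and 139 and 200 CPM after CL (log2 change 3.63, SE 0.41, adjusted p = 0.0154). Both replicates lay far above RT in each gene.

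Further genes of extracellular proteins lay higher without passing, of which Fbn1 is in the matrix list, Fn1 in that of phenotypic modulation and Ogn in none. Ogn (osteoglycin) was at 32.7 and 45.8 CPM at RT and 143 and 221 CPM after CL (adjusted p = 0.0881), Fbn1 (fibrillin-1) at 27.6 and 11.6 CPM and 139 and 116 CPM (adjusted p = 0.145), and Fn1 (fibronectin) at 34.3 and 9.48 CPM and 145 and 158 CPM (adjusted p = 0.194). Of 33 genes of the matrix list 1 was called, beside 0.025% of all genes tested. In both CL libraries 16 of the list were higher, which held for 14.9% of all genes tested, with a median log2 change of 0.62. Of 27 genes of calcium handling and ion channels 0 passed and 13 were lower in both CL libraries, which held for 18.2% of all genes, with a median of -0.37. Rergl was at 228 and 250 CPM after CL (log2 change -1.55, adjusted p = 0.877). Of 22 interferon genes 0 passed, and the summed level was 1546 CPM in CL replicate 1 and 543 CPM in CL replicate 2, the latter within the range of the RT libraries.

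Markers of adipose stromal cells moved with these genes. All 5 adipose stromal markers outside the gate were higher in both CL libraries, their sum being 572 and 565 CPM at RT and 1203 and 928 CPM after CL. With the cells carrying other markers left out, Mfap5 passed at a log2 change of 2.75 (adjusted p = 0.0457) and C3 did not (1.17, adjusted p = 1.00). With the cells of the highest doublet scores left out, neither passed (Mfap5 3.28, adjusted p = 0.143; C3 0.69, adjusted p = 1.00). Of 6 brown adipocyte markers tested, 4 were higher in both CL libraries, beside 14.9% of all genes tested, with a median log2 change of 4.13. The summed level of the brown adipocyte markers was 6253 and 4981 CPM at RT and 5350 and 8116 CPM after CL. Summed erythroid counts were 5791 CPM in CL replicate 1 and 8.37 CPM in CL replicate 2. The part of brown adipocyte and erythroid counts in the results was not tested. Leaving out C57 RT replicate 1 gave 255 calls, RT replicate 2 gave 7, and CL replicates 1 and 2 gave 1 and 6.

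The KO and WT libraries of the Adrb1 line were compared within temperature. Adrb1 itself was at 18.5 CPM in WT RT, 24.0 in WT COLD, 25.4 in KO RT and 12.7 in KO COLD, and did not pass. The KO values lay on both sides of the WT values. Smooth muscle cells had under 1 count of Pdgfra, so the check of the genotype lies in the Pdgfra stromal cells, in which the Cre driver acts. There Adrb1 had 12.0 summed counts in WT RT (1.84 CPM) and 50.02 in WT COLD (4.08 CPM), and 0 in both KO libraries, which allows up to 1.49 CPM in KO RT and 0.562 CPM in KO COLD (3 counts per library). Of 8618 genes 0 passed (0%, edgeR's quasi-likelihood test, 261 at an unadjusted p under 0.05, 0 by DESeq2), and without keratin-positive cells 0 of 8146 passed (280 unadjusted), with 1 library per genotype and temperature and most of the spread taken from the C57 pairs. Pde10a, a cyclic nucleotide phosphodiesterase, was at 52.3 and 39.6 CPM in WT and 97.6 and 134 CPM in KO (log2 change 1.28, SE 0.32, adjusted p = 1). Apod (apolipoprotein D) was at 176 and 53.5 CPM in WT and 0 and 1.54 CPM in KO (adjusted p = 0.306). C3 (log2 change -2.11, adjusted p = 0.699) and Fn1 (-1.75, adjusted p = 0.951) also lay lower in both KO libraries, as did 26.7% of all genes tested. All 5 adipose stromal markers had a log2 change under 0, with a median of -1.09, and 2 of them were lower in both KO libraries. Without C57 RT replicate 2 there were 5 calls, without C57 RT replicate 1 there were 4, and without any 1 of the other C57 libraries there was 1.

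Smooth muscle cells and pericytes of the same C57 libraries were compared in their responses. The response to cold differed for 14 of 8781 genes (0.159%), with 5 more positive (0.0569%) and 9 more negative (0.102%) in smooth muscle cells (edgeR's quasi-likelihood test of the class by treatment term, library as a block). In most of the genes that were more negative, the values of pericytes were higher after cold while those of smooth muscle cells lay close together or overlapped. Igfbp3, an insulin-like growth factor binding protein, was at 187 and 268 CPM in RT pericytes and 2245 and 2321 CPM in COLD pericytes, and at 6.51 and 55.3 CPM against 12.6 and 29.4 CPM in smooth muscle cells (difference -3.55 on the log2 scale, SE 0.71, adjusted p = 0.0495). Synpo2, an actin-binding protein of muscle, was at 6.49 and 7.81 CPM in RT pericytes and 70.6 and 47.8 CPM in COLD pericytes, and at 399 and 680 CPM against 417 and 466 CPM in smooth muscle cells (difference -3.09, SE 0.56, adjusted p = 0.0262). Prnp, the prion protein gene, was at 41.9 and 26.9 CPM in RT pericytes and 181 and 94.5 CPM in COLD pericytes, and at 95.1 and 62.9 CPM against 68.2 and 48.6 CPM in smooth muscle cells (difference -2.40, SE 0.37, adjusted p = 0.0107).

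Synpo2 is on the contractile list. Smooth muscle cells were chosen by contractile counts and pericytes by a lack of Myh11, so its difference is not independent of the choice of cells. Kcne4, a potassium channel subunit, had a difference of -2.24 (SE 0.47, adjusted p = 0.0495). Among genes with a more positive response in smooth muscle cells, Cthrc1, a matrix gene, went in pericytes from 186 and 238 CPM to 58.6 and 50.2 CPM, while smooth muscle cells had 20.5 and 68.3 CPM at RT and 60.5 and 41.8 CPM after cold (difference 2.35, SE 0.43, adjusted p = 0.0262). Car3, which the authors' correction for free RNA used as a gene absent from these cells, and mt-Co2, which was at 0 CPM in C57 RT replicate 2, were also called. Of 25 interferon genes 0 differed, which is near the 0.159% of all genes called. The median difference of the list was -0.01, with the same libraries behind both responses. In 4 of the 25 the difference between the classes was higher in both COLD libraries than in both RT libraries, and in 1 it was lower. That held for 1759 and 1529 of 8781 genes. Leaving out COLD replicate 1 gave 43 calls, COLD replicate 2 gave 8, RT replicate 1 gave 7, RT replicate 2 gave 0, and CL replicates 1 and 2 gave 9 and 1. None of the 14 genes passed with DESeq2, which called 2 others, 2 of the 14 passed with a gate of at least 10 counts, and 0 of the 13 tested passed with sums thinned to the lowest total, all in the same direction as above.

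**Figure D5:**
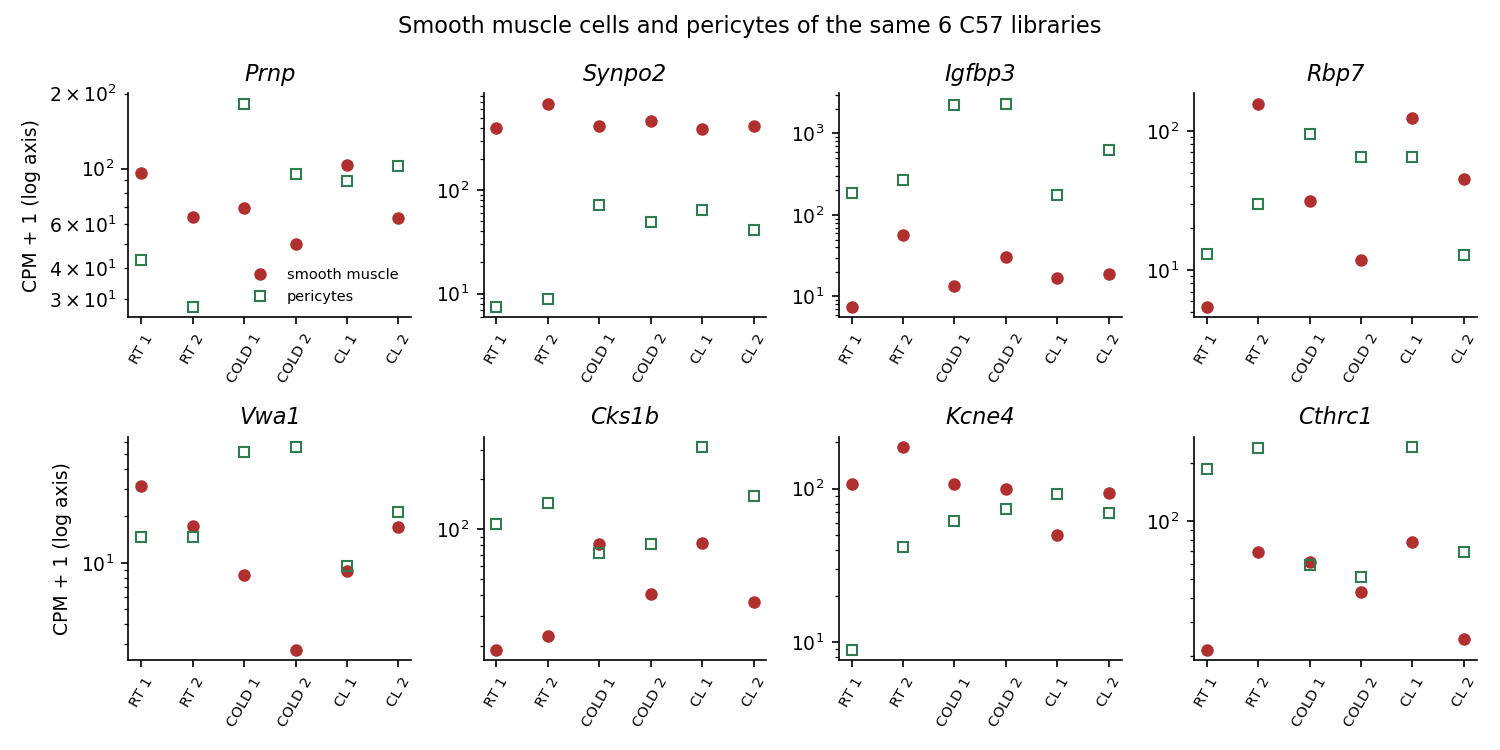
Levels (CPM + 1, log axis) of 8 genes whose response to cold differed between smooth muscle cells (filled circles) and pericytes (open squares) of the same 6 C57 libraries. Synpo2 stays between 391 and 680 CPM in smooth muscle cells while pericytes move from 6.49 and 7.81 CPM at RT to 40.2 to 70.6 CPM in the COLD and CL libraries.

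The response to CL differed for 33 genes (0.376%), 11 more positive (0.125%) and 22 more negative (0.251%) in smooth muscle cells. The gate gene Acta2 was 1 of them and is not counted as a result, which leaves 32. Of 30 contractile genes 3 were called, all more negative, beside 0.251% of all genes tested. Smooth muscle cells were chosen by contractile counts and pericytes by a lack of Myh11. These 3 calls are thus not independent of the choice of cells, and its part in them was not tested. Tagln was at 31.2 and 78.2 CPM in RT pericytes and 1045 and 420 CPM in CL pericytes. In smooth muscle cells it was at 10561 and 15206 CPM against 9890 and 11433 CPM (difference -4.03, SE 0.84, adjusted p = 0.0219). Actg2 (-5.12, adjusted p = 0.0219) and Synpo2 (-3.09, adjusted p = 0.0161) behaved alike. Heyl, a Notch target, went in pericytes from 479 and 946 CPM to 183 and 210 CPM and was at 159 and 321 CPM against 212 and 279 CPM in smooth muscle cells (difference 1.86, SE 0.40, adjusted p = 0.029). Tbx5, a transcription factor, went from 283 and 715 CPM to 81.8 and 127 CPM in pericytes and stood at 104 and 145 CPM against 154 and 114 CPM in smooth muscle cells (difference 2.02, SE 0.42, adjusted p = 0.0219). In these genes the smooth muscle values at RT and after CL overlapped or lay close together. Hba-a1, Hbb-bs and Alas2, genes of red blood cells, were also called and move with the erythroid counts of CL replicate 1. Leaving out COLD replicate 1 gave 61 calls, CL replicate 2 gave 19, RT replicate 2 gave 7, and RT replicate 1 and CL replicate 1 gave 6 each. Of the 19 genes named by the rule, 6 passed with DESeq2.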

How the data were processed

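Single-cell RNA was measured in stromal vascular cells of iBAT, split by magnetic beads into Lin+ and Lin- fractions, and the 10 Lin- libraries were used. Per the labels and the study's methods, the authors aligned reads to mm10 and counted molecules with Cell Ranger 3.0.1 (submitters' processing notes), corrected the counts for free RNA with SoupX using Fabp4 and Car3 as genes absent from the cells, and deposited the corrected expected counts for 31053 genes. The correction can lower low counts unevenly between libraries. The study kept Lin- cells with over 100 genes, and the rule used here asks for at least 500.

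Counts of the cells chosen by the rule were summed per library, rounded and tested with edgeR 4.0.16 (TMM, filterByExpr, quasi-likelihood test, Benjamini-Hochberg over all genes tested, threshold 0.05) in R 4.3.3. The authors state a test over cells, which are not replicates, so sums were tested instead. Gate genes stayed in the fits, and a call on one is not counted as a result. The comparisons within C57 mice used 1 fit of 6 libraries; cold over 8 libraries had the line as a term; KO against WT was fitted over 10 libraries within line and treatment; responses of smooth muscle cells and pericytes were compared with the library as a block. Shares were compared by exact permutation tests. In percentages of cells, a single gene had a count when its corrected value rounded to at least 1. For the keratins the sum had to be at least 1. Groups of libraries were called without overlap on TMM-scaled values. Pericytes were cells with at least 2 summed counts of Kcnj8, Higd1b and Abcc9 and under 1 of Myh11. Endothelial cells had at least 2 of Pecam1 and Cdh5, and Pdgfra stromal cells at least 1 of Pdgfra. In each class the other classes' markers were held under 1 count. Each library is a separate pool of mice, so p-values measure the spread between pools.

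Genes were named as the 10 largest rises and falls among called genes without overlap between groups, or up to 5 each way by p where fewer than 5 passed; members of the gene lists were also named. The cells and the lists were chosen with earlier results of these data known. Alternatives were DESeq2 1.42.0, no filter on low counts, a gate of at least 10 contractile counts, cells or sums thinned to 1 depth, cells without the top 6% of Scrublet doublet scores (the caller itself marked under 0.5% of cells in 6 libraries), a replicate block and each library left out. A further 3 alternatives, chosen after seeing the data, left out keratin-positive cells or all cells with other markers, or added to the shares cells that lack Myh11. The fits were also run on data simulated with known changes, and how many of these were recovered is not given here. Sequences came from RefSeq tables on GRCm38.p6. The Lin+ libraries were not used. Results for some genes are not reported here.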

Additional observations from a re-analysis of the deposited data

Results flagged for a closer look

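In the 58 sets of 4 RT or 4 COLD libraries examined for named genes, 2 had a library far from the other 3, and about 1 in 20 such sets is marked by chance. Irf7 stood at 118.26 CPM in the smooth muscle cells of C57 COLD replicate 1, with the other COLD libraries at 29.8 to 43.0 CPM. Rtp4 stood at 27.516 CPM in WT COLD, with the other COLD libraries at 85.9 to 94.0 CPM.

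The responses of smooth muscle cells and pericytes of the same C57 libraries differed by the test of the class by treatment term for 14 genes after cold and for 33 genes after CL, of which the gate gene Acta2 is not counted as a result, which leaves 32. Igfbp3, Synpo2 and Prnp after cold and Tagln, Heyl and Tbx5 after CL are genes in which the pericyte values moved more than the smooth muscle values. Synpo2 and Tagln are contractile genes, and the rules for both classes read contractile counts.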

How the results depend on the processing

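Counts of called genes depended on the filter, the cells and the libraries. With no filter on low counts, calls numbered 82 (cold in C57), 87 (CL), 462 (cold over 8 libraries), 26 (KO against WT), 64 (cold response against pericytes) and 76 (CL response). DESeq2 called 6 genes for CL, 2 for the cold response and 11 for the CL response. A gate of at least 10 counts gave 2 calls for cold in C57, 0 for CL and 2 for the cold response. Without the top doublet scores there were 0 for CL, 19 for cold over 8 libraries and 6 for the cold response. Sums thinned to the lowest total gave 0 for CL, 24 for cold over 8 libraries, 0 for the cold response and 21 for the CL response. Without keratin-positive cells cold over 8 libraries had 23, and without cells carrying other markers it had 0, cold in C57 had 1 and the cold response had 36. The causes were not tested.

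Leaving out each library in turn gave 0 to 141 calls for cold in C57, 1 to 255 for CL, 4 to 260 for cold over 8 libraries, 0 to 5 for KO against WT, 0 to 43 for the cold response and 6 to 61 for the CL response. The share differences ran from -0.818 to 0.331, -2.05 to -0.148 and -1.03 to -0.490 percentage points for cold in C57, CL and cold over 8 libraries, and as a share of vascular cells they were positive, at 7.02, 7.24 and 3.29. With cells that lack Myh11 added, the difference for cold in C57 was 0.124. For named genes, 1 direction reversed: C3 in the CL response against pericytes was -0.89 without the top doublet scores. In cold over 8 libraries, named genes kept direction and side of the threshold in 191 of 305 alternatives and lost the threshold in 114.

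The paper merged C57 libraries of the same replicate experiment, so replicate number can mark a shared experiment. It was not in the main C57 fits. Deviations from the group means correlated at 0.12 between RT and COLD and -0.13 between RT and CL. Between COLD and CL the correlation was 0.19, each over 5039 genes. Such values cannot show that pairing is absent. With the replicate block, calls numbered 0 for cold in C57, 1 for CL, 72 for cold over 8 libraries, 23 for the cold response and 76 for the CL response. Depth limits C57 CL replicate 1 the most, with 122565 summed counts.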
